A study of Mus musculus with 30 samples.

Results

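The metallothionein genes Mt1 and Mt2, the zinc-sensing factor Mtf1 and 7 zinc transporters were followed in single mouse blastocysts. The 10 genes were chosen on the measured values: Mt1, Mt2 and Slc39a4 differed between twin and control blastocysts in these arrays, and Mtf1, Slc39a1, Slc39a8, Slc39a10, Slc30a1, Slc30a4 and Slc30a5 were taken around them for their place in zinc handling. They were 10 of the 30142 genes with a transcript cluster of their own, a cluster being the group of array probes that reads 1 gene. Each had a single such cluster. In all, 18090 genes were bright enough to be tested, and 9 of the 10 were among them; Slc39a8 was too dim.

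Every blastocyst came from a B6C3F1 x CD1 mating after hormonal stimulation, and each was hybridised to its own Affymetrix array. Until the 2-cell stage all embryos were kept in KSOM(aa), an amino acid-supplemented medium for mouse embryos. For 20 of the blastocysts the 2-cell embryo was then divided, which gave 10 pairs of monozygotic twins. Of each pair 1 blastomere was raised singly in the medium GM501 and the other in SAGE 1-Step; both are media for assisted reproduction. The other 10 were undivided controls that stayed in KSOM(aa) and also grew singly. All were taken at 4 days post coitum after 96 h of culture, when the labels give about 40 to 50 cells for a twin and about 80 for a control. Bisection, medium and cell number all separated twins from controls, so their parts in any difference cannot be told apart. In RNA of whole blastocysts, fewer cells of a type and less RNA per cell cannot be told apart either.

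Zinc is held at low free levels in cells by several kinds of protein. Metallothioneins are small cysteine-rich proteins that bind zinc and copper ions. Transporters of the ZIP family (Slc39 genes) carry zinc into the cytosol, and those of the ZnT family (Slc30 genes) carry it out of the cytosol, to the outside or into vesicles. MTF1 is a transcription factor that is activated by zinc and binds metal response elements in promoters, those of Mt1, Mt2 and Slc30a1 being the classical ones. Slc39a4 encodes ZIP4, the main zinc importer of the gut and of the visceral endoderm, without which mouse embryos die early. Metallothionein transcripts are known from mouse blastocysts.

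The metal response element has a short core, written TGCACNC or TGCGCNC, and its matches are shown because MTF1 is the factor that joins these genes in textbooks. RefSeq promoter entries of GRCm38.p6, the build also called mm10, were found for 9 of the 10 genes, with 11 entries in all, and each was searched on both strands over the 250 bases before its start site. Of all 32851 promoters in that table, 21.4% held at least 1 match, 5.17% at least 2 and 1.26% at least 3. Mt2 held 3, Slc30a4 held 2, and Mt1, Slc30a1 and Slc30a5 held 1 each. Of the 2 entries of Slc39a8, 1 held a match. Both windows of Slc39a8 and 1 of Slc39a10 lie wholly inside the annotated gene, and that of Slc30a5 overlaps it by 53 bases. Mtf1, Slc39a1 and Slc39a10 held none in this window, which says only that these letters are not there. No matches of these genes overlapped each other. The start site used matters here: with the 50 bases after it, Mt1 held 3 matches, Mt2 4, Slc30a1 2 and Slc30a4 3, and in windows of that 300-base length 25.7% of all promoters held at least 1 and 1.97% at least 3.

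The promoters with the most matches are given whole, and for Mt1 and Slc30a1, whose windows run into the annotated gene, 30 bases around the match are given. All are read 5′ to 3′ on the gene's strand, with matches on either strand in capitals. Mt2 lies on the plus strand, at chr8:94172368-94172617. Its neighbour Mt1 is read in the same direction, and its stretch is chr8:94179054-94179083. The stretch of Slc30a1, on the plus strand, is chr1:191906726-191906755, and the window of Slc30a4, on the minus strand, is chr2:122702664-122702913.
Mt2 promoter: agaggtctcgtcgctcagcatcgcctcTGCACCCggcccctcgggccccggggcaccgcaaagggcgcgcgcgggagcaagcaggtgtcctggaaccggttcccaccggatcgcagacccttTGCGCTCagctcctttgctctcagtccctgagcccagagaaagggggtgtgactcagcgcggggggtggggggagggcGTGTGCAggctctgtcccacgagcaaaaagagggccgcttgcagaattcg
Mt1 site: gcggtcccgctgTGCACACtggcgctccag
Slc30a1 site: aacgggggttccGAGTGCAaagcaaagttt
Slc30a4 promoter: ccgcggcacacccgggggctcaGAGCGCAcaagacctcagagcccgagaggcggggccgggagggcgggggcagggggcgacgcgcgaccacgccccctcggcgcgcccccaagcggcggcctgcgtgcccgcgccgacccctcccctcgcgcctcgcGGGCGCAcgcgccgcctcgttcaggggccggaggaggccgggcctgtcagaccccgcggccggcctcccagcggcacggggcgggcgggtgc
In Mt2 the matches began 223, 128 and 50 bases before the start, in Mt1 23 bases and in Slc30a1 43 bases before it. A match is a description of the sequence and is not a measured binding site.

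Values are log2 signals, in which 1 unit is a factor of 2; a signal is relative within its gene, so levels of different genes are not set against each other. The median over all clusters of an array was 4.64 ± 0.029 in controls, 4.88 ± 0.238 in GM501 twins and 4.89 ± 0.225 in the SAGE group (mean ± SD, n = 10 each). It was higher in the twins of pairs 1 to 6 (5.01 ± 0.148, SD, 12 arrays) than in those of pairs 7 to 10 (4.69 ± 0.178, SD, 8 arrays), where the SAGE twin of pair 8 stood apart at 5.12. No label names a batch. This division was taken from the array medians and is not one of the study's groups, so differences of the 10 genes from controls are also given within it. Markers of trophectoderm fell in twins, 9 of 10 in GM501 and 8 of 10 in SAGE, as did 6 of 13 primitive endoderm markers in each medium and 1 of 8 epiblast markers in GM501 against 6 of 8 in SAGE (limma, adjusted p under 0.05), against 6.97% of all genes called lower in GM501 and 8.63% in SAGE twins. In pairs 7 to 10 alone, where fewer twins entered, 1 of these markers, of trophectoderm in GM501 twins, was called. Compared directly between co-twins, none of the 8 epiblast markers was called, though all 8 averaged higher in GM501 twins (median difference 0.46). The epiblast counts thus do not show a difference between the media. Of 7 markers of oviduct, cumulus and blood cells, 2 were bright enough to test and neither was called.

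Mt1 and Mt2, neighbours on chromosome 8 (GRCm38.p6, 94178883 to 94180327 and 94172618 to 94173567), were higher in twins than in controls, and the values of this contrast are a description, since they chose the genes. The signal of Mt1 ran from 10.44 to 11.64 in the 10 controls, with a median of 11.01. In GM501 twins it ran from 11.03 to 14.06 around a median of 12.84, and in SAGE twins from 11.18 to 13.36 around 13.03. Of the 20 twins, 18 lay above every control, and the GM501 twin of pair 8 and the SAGE twin of pair 9 lay within the controls' range. The difference from controls was 1.74 ± 0.317 log2 units in GM501 twins and 1.64 ± 0.245 in SAGE twins (SE, 10 against 10), a factor of 3.33 and 3.12. Over all pairs, twins also spread more widely than controls. The SD was 1.01 in GM501 twins and 0.74 in SAGE twins, against 0.35 in controls. Over both media, the SD was 0.38 within pairs 1 to 6 (12 arrays) and 0.51 within pairs 7 to 10 (8 arrays). The SD of each medium thus includes the gap between these sets. The share of all genes with a wider spread in twins was not counted.

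The 2 sets of pairs lay apart in Mt1. All 12 twins of pairs 1 to 6 were above every control, from 12.72 to 14.06, and their mean exceeded that of controls by 2.28. The 8 twins of pairs 7 to 10 ran from 11.03 to 12.49, with a mean 0.80 above that of controls, and 6 of them lay above every control. The sets did not overlap with each other, and the share of all genes that separate them in this way was not counted. Of all 18090 genes tested, 7.22% had all 12 twins of pairs 1 to 6 above all controls. No gene of the 10 had all 20 twins on 1 side of all controls, which 0.0111% of genes reached above and 0.0276% below. The array median moved with Mt1 here. With every array centred on its own median, the difference from controls was 1.497 in GM501 and 1.394 in SAGE twins.

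Mt2 followed the same direction with a smaller difference. Controls lay between 10.38 and 11.18, with a median of 10.54, and the next control below the highest stood at 10.73. GM501 twins ran from 10.84 to 13.57, with a median of 11.48, and SAGE twins from 10.45 to 12.73, with a median of 11.72. Above every control were 13 of the 20 twins, 10 of the 12 in pairs 1 to 6 and 3 of the 8 in pairs 7 to 10. The difference from controls was 1.13 ± 0.275 in GM501 and 1.05 ± 0.219 in SAGE twins (SE, 10 against 10), a factor of 2.19 and 2.07. It was 1.43 in pairs 1 to 6 and 0.57 in pairs 7 to 10, and 0.89 in GM501 and 0.801 in SAGE twins with arrays centred. Both twins of pair 5 had the highest Mt2 of their medium, at 13.57 and 12.73.

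**Figure D1:**
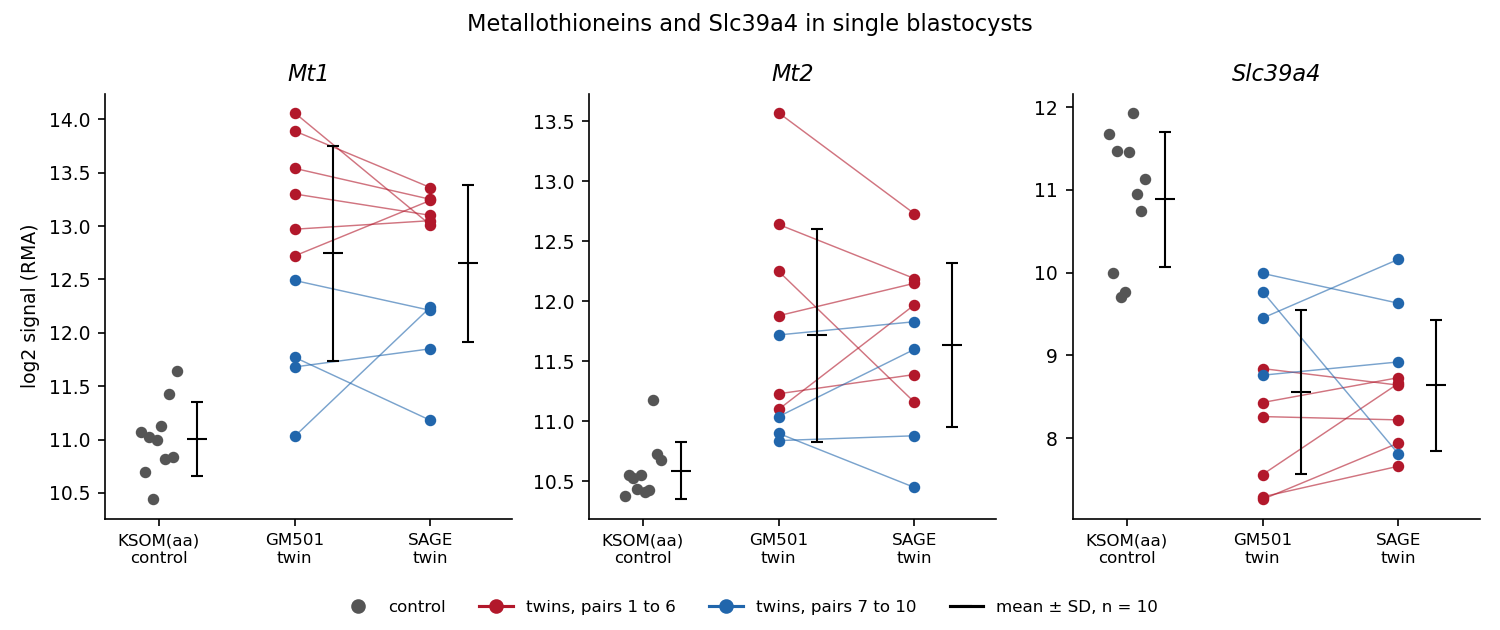
Log2 signals of Mt1, Mt2 and Slc39a4 in each of the 30 blastocysts, by group; lines join co-twins, colours give the pair sets, and bars are the mean ± SD of 10. For Mt1, 18 of 20 twins lie above all controls, and for Slc39a4, 17 of 20 lie below them. All 12 twins of pairs 1 to 6 are among these for both genes. Of genes tested, 7.22% had these 12 twins above all controls and 5.55% had them below. Shares of genes with 18 or 17 of 20 were not counted.

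Mtf1, the gene of the zinc sensor itself, had a smaller difference, and in the other direction. Its signal ran from 9.40 to 10.17 in controls, from 8.95 to 10.40 in GM501 twins and from 9.13 to 10.04 in SAGE twins, with medians of 9.80, 9.43 and 9.24. The groups overlapped: 10 of the 20 twins lay below every control and 1, the GM501 twin of pair 10, above. The difference from controls was -0.25 ± 0.149 in GM501 and -0.46 ± 0.121 in SAGE twins (SE). It was -0.54 in pairs 1 to 6 and -0.07 in pairs 7 to 10, where the GM501 twins had 0.101, and with arrays centred it was -0.489 in GM501 and -0.704 in SAGE twins.

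Slc39a4, on chromosome 15 (76612383 to 76618506), showed the widest gap of the 10 genes. Controls ran from 9.71 to 11.93, with a median of 11.04, with 3 of them between 9.71 and 10.00 and 7 between 10.74 and 11.93. GM501 twins ran from 7.26 to 9.99, with a median of 8.59, and SAGE twins from 7.66 to 10.16, with a median of 8.65. Below every control lay 17 of the 20 twins; the GM501 twins of pairs 8 and 9 and the SAGE twin of pair 10 were within the controls' range. The difference was -2.32 ± 0.379 in GM501 and -2.25 ± 0.337 in SAGE twins (SE, 10 against 10), so that controls exceeded them by a factor of 5.00 and 4.74. All 12 twins of pairs 1 to 6 lay below every control, which 5.55% of genes tested showed, with a mean difference of -2.76, and the 8 of pairs 7 to 10 had -1.57. With arrays centred on their medians the differences were -2.561 in GM501 and -2.492 in SAGE twins.

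Because ZIP4 is a protein of visceral endoderm, whose forerunner is the primitive endoderm, the markers of that lineage are set beside Slc39a4. Their mean log2 signal per array over 13 markers was 9.32 ± 0.48 in controls (SD, n = 10; 8.26 to 9.85), 8.38 ± 0.66 in GM501 twins (7.76 to 9.44) and 8.35 ± 0.57 in SAGE twins (7.60 to 9.21). The groups overlapped. The median difference from controls over the 13 was -0.47 in GM501 and -0.48 in SAGE twins. In GM501 twins the differences ran from -2.91 for Cubn, an endocytic receptor, to 0.33 for Serpinh1, a collagen chaperone, and in SAGE twins from -2.85 to 0.40 for the same 2 genes. The fall was not particular to markers of this lineage. Over 10 trophectoderm markers the median difference from controls was -0.71 in GM501 and -0.74 in SAGE twins. Over 8 epiblast markers it was -0.43 and -1.08. The part of any of these cells in the difference of Slc39a4 was not tested.

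Of the other importers, Slc39a1 was called lower in twins of both media, and Slc39a10 in SAGE but not in GM501 twins. Of all genes, 6.97% were called lower in GM501 and 8.63% in SAGE twins. Since the 10 genes were chosen on this contrast, these calls are a description only. Slc39a1 (ZIP1), a widely expressed importer at the cell surface, ran from 9.57 to 10.55 in controls, from 8.69 to 9.75 in GM501 twins and from 8.60 to 9.99 in SAGE twins, with medians of 9.97, 9.43 and 9.22. All 12 twins of pairs 1 to 6 were below every control, which 5.55% of genes tested showed, and 3 of the 8 in pairs 7 to 10. The differences were -0.63 ± 0.141 in GM501 and -0.76 ± 0.173 in SAGE twins (SE), and -0.92 and -0.36 in the 2 sets of pairs. Slc39a10 (ZIP10), an importer whose transcription MTF1 is described as repressing, ran from 9.96 to 10.91 in controls, from 8.67 to 10.59 in GM501 twins and from 7.66 to 10.56 in SAGE twins. Twins ranged more widely than controls, with 10 of 20 below every control and the rest within their range. Its difference was -0.69 ± 0.239 in GM501 and -0.89 ± 0.30 in SAGE twins (SE), and -0.77 and -0.83 in the 2 sets of pairs. The lowest signal, 7.66, belonged to the SAGE twin of pair 8, the array that stood apart by its median; without pair 8 the SAGE difference was -0.685. Slc39a8 (ZIP8) stayed between 4.33 and 5.07 in all 30 arrays, too close to the dimmest genes for a test, with means of 4.73, 4.79 and 4.73 in controls, GM501 and SAGE twins.

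Among the exporters, Slc30a4 was called lower in twins of both media, and Slc30a1 and Slc30a5 were called in neither. These calls too are a description only, against 6.97% of all genes called lower in GM501 and 8.63% in SAGE twins. Slc30a1 (ZnT1), which exports zinc across the plasma membrane, ran from 5.70 to 7.84 in controls, from 6.90 to 8.04 in GM501 twins and from 6.78 to 8.49 in SAGE twins, with medians of 7.16, 7.54 and 7.61. The groups overlapped widely, with 4 of 20 twins above every control. Its difference was 0.46 ± 0.215 in GM501 and 0.59 ± 0.26 in SAGE twins (SE), and 0.225 and 0.345 with arrays centred. It was larger in pairs 7 to 10, at 0.94, than in pairs 1 to 6, at 0.26, the reverse of the order in Mt1, Mt2 and Slc39a4; the 4 twins above all controls were of pairs 7 to 10.

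Slc30a4 (ZnT4), which loads zinc into vesicles and into milk, ran from 10.42 to 11.87 in controls, from 8.88 to 11.32 in GM501 twins and from 9.66 to 10.94 in SAGE twins. Below every control were 14 of the 20 twins, and the difference was -1.06 ± 0.274 in GM501 and -0.78 ± 0.181 in SAGE twins (SE). It was -1.14 in pairs 1 to 6 and -0.60 in pairs 7 to 10, with -0.38 in the GM501 twins of the latter. Slc30a5 (ZnT5), which supplies zinc to enzymes of the secretory pathway, ran from 9.24 to 10.86 in controls, from 6.82 to 10.56 in GM501 twins and from 8.08 to 10.84 in SAGE twins. Its differences were -0.73 ± 0.347 and -0.68 ± 0.301 (SE), with 10 of 12 twins of pairs 1 to 6 and 3 of 8 of pairs 7 to 10 below every control and mean differences of -1.03 and -0.22 in these sets.

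**Figure D2:**
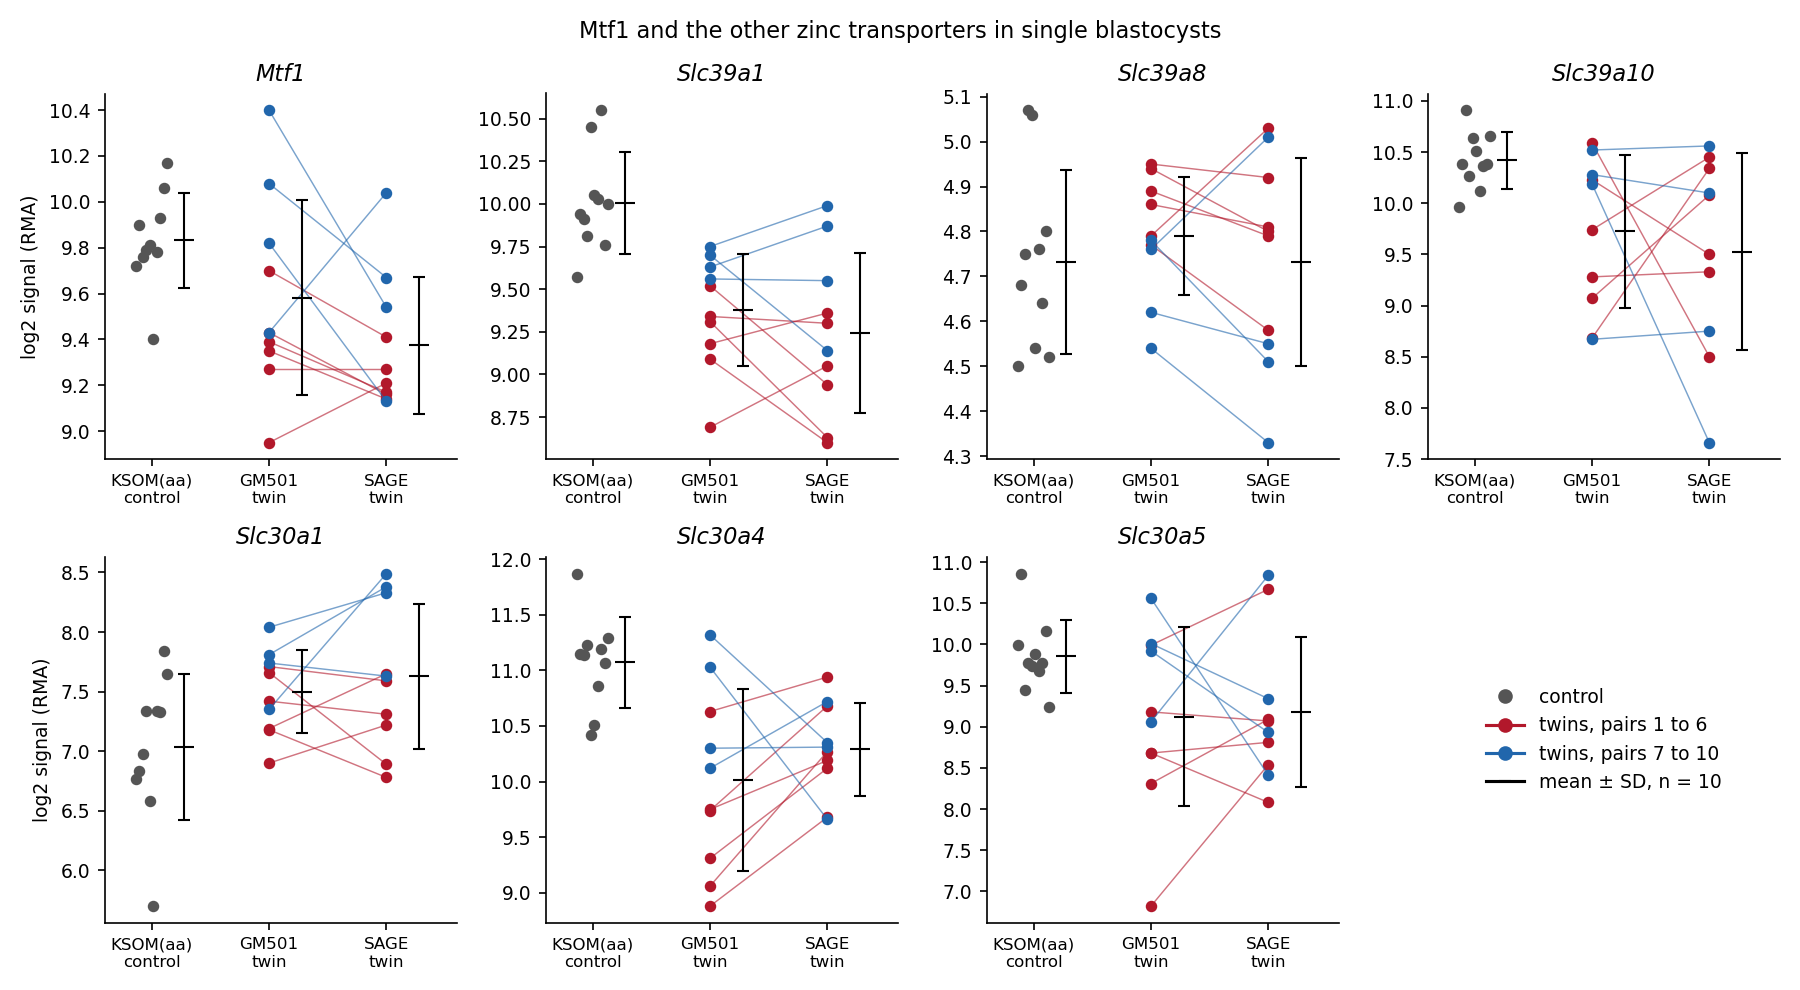
Log2 signals of Mtf1 and 6 further transporters in each blastocyst, by group, with lines joining co-twins and bars giving the mean ± SD of 10. Slc39a1 in pairs 1 to 6 lies wholly below the controls, as do 5.55% of genes tested, and the highest Slc30a1 signals belong to pairs 7 to 10. Each panel has its own axis.

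In counts, 2 of the 9 genes tested were called higher and 3 lower in GM501 twins (Mt1 and Mt2; Slc39a4, Slc39a1 and Slc30a4), where 6.81% of all genes were called higher and 6.97% lower. In SAGE twins Mtf1 and Slc39a10 joined the lower ones, which made 2 and 5, against 7.5% and 8.63% of all genes. With 1 value per embryo, the mean of co-twins, the counts were 2 and 5 as well, against 14.2% and 11.4%. Both comparisons share the 10 controls, and the genes were picked on this contrast, so nothing is read from these counts. The median difference over the 9 genes was -0.63 in GM501 and -0.68 in SAGE twins, against 0.114 and 0.111 over all genes. Centring each array on its median moved the median of all genes to -0.125 and -0.135 and turned the split of calls to 258 higher and 2285 lower in GM501 twins, from 1232 and 1261, and to 260 and 3126 in SAGE twins, from 1356 and 1562. Of the 9 genes, 2 were then called higher and 4 lower in GM501, and 2 and 5 in SAGE twins. Without pair 8 they were 2 and 4 in each medium, Slc39a10 gaining its call in GM501 and losing it in SAGE twins. With embryo as a random block over all 30 arrays they were 2 and 3 in GM501 and 2 and 4 in SAGE twins, where Slc39a10 was not called. In pairs 7 to 10 alone none of the 9 was called in either medium, with 239 and 147 genes called in all. Fewer twins entered there, so a missing call does not show that a difference is absent.

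**Figure D3:**
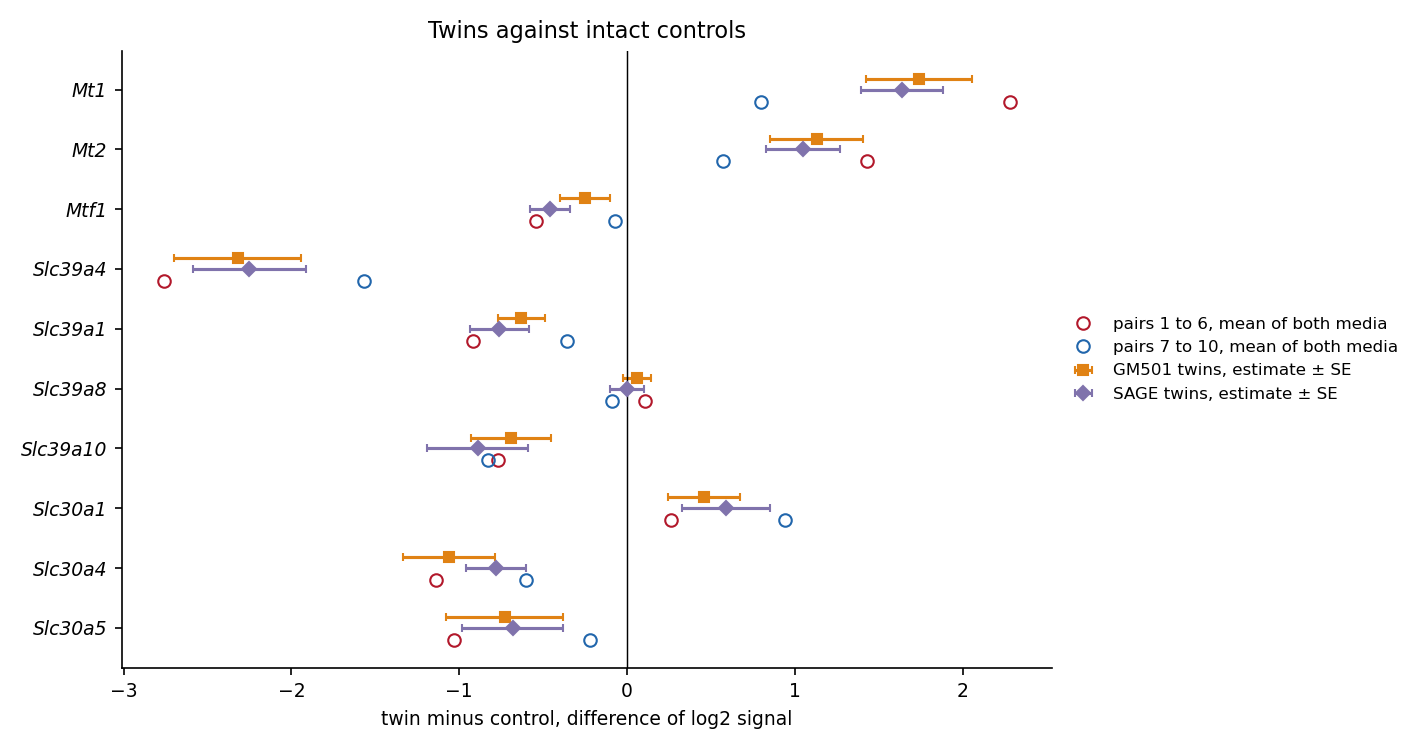
Difference of log2 signal between twins and controls for the 10 genes; filled markers are the estimate ± SE for each medium (10 against 10), open circles the mean difference over both media in pairs 1 to 6 and in pairs 7 to 10. Mt1, Mt2 and Slc30a1 lie above 0 in both sets, and Slc39a4 is lowest, at -2.76 in pairs 1 to 6.

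Whether the culture medium changed these genes was asked within pairs, because both twins of a pair carry 1 genotype; the genes were not chosen on this comparison. None of the 9 was called, and none of the 18090 genes was (0.0%; limma with pair as a block), while 695 genes had an unadjusted p under 0.05. Mt1 differed by 0.10 ± 0.186 (SE, 10 pairs; 95% interval -0.31 to 0.50; adjusted p = 1.0) and was higher in the GM501 twin in 6 of 10 pairs. For Mt2 the difference was 0.08 ± 0.182 (interval -0.31 to 0.48), with the GM501 twin higher in 4 of 10 pairs. For Slc39a4 it was -0.08 ± 0.24 (interval -0.60 to 0.45), again with 4 of 10. The intervals do not show that the media act alike.

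The remaining genes had intervals that held 0 as well. Mtf1 differed by 0.21 ± 0.135 (interval -0.09 to 0.50), higher in the GM501 twin in 7 of 10 pairs. Slc30a4 differed by -0.28 ± 0.24 (interval -0.80 to 0.24), higher in 2 of 10 pairs. In all 6 of pairs 1 to 6 its GM501 twin was the lower, by 0.31 to 1.21, and in pairs 7 and 8 it was the higher, by 0.97 and 1.37. The widest intervals were those of Slc39a10 (-0.59 to 0.99) and Slc30a5 (-0.81 to 0.69). Slc39a1 (-0.15 to 0.42) and Slc30a1 (-0.48 to 0.23) were narrower. Pair 8 held the widest gap between co-twins for 5 of the 10 genes: Mt1 (-1.21), Slc39a4 (1.96), Slc39a10 (2.53), Slc30a4 (1.37) and Slc30a5 (2.15), each as GM501 minus SAGE.

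**Figure D4:**
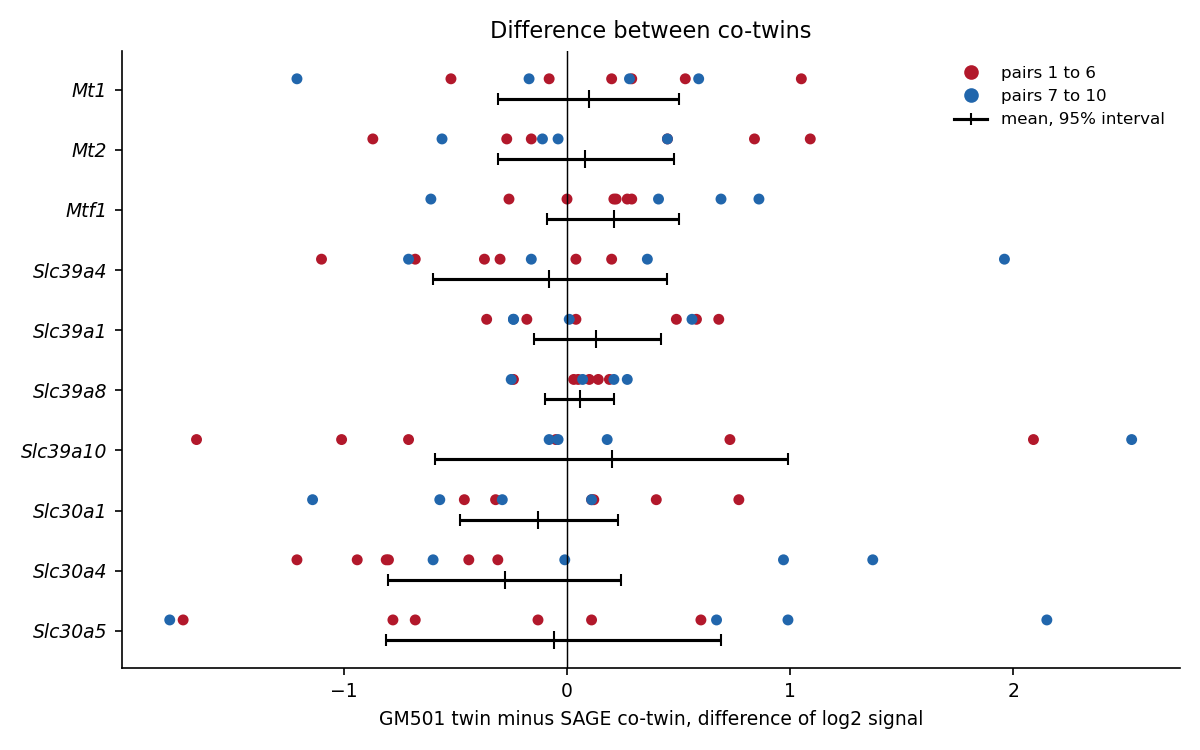
Difference of log2 signal between the GM501 twin and its SAGE co-twin for each of 10 pairs (points, coloured by pair set) with the mean and its 95% interval from the paired fit (bars). Every interval includes 0.

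Over all 10 pairs, embryo of origin was called for 3 of the 9 genes tested, a share near that of all genes. The intraclass correlation, the share of the spread among twins that lies between embryos, was 0.74 for Mt1 (adjusted p = 0.00881, limma's F test over 10 pairs with medium in the model), 0.70 for Mt2 (adjusted p = 0.0153) and 0.56 for Slc39a4 (adjusted p = 0.0431). The F test called 26.4% of all genes, and the median intraclass correlation over the genes tested was 0.43, so 3 of 9 called is a share near the background. Slc39a1 had 0.51 (adjusted p = 0.104), Slc30a1 0.40 and Mtf1 0.32, and Slc30a5, Slc30a4 and Slc39a10 had 0.25, 0.17 and -0.14; none of these passed.

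The intraclass correlation was also computed within each set of pairs, and differences between genes in it were not tested. For Mt1 it was 0.01 within pairs 1 to 6 and -0.03 within pairs 7 to 10. The correlation of 0.74 over all pairs thus spans the gap between the sets and does not show likeness of co-twins within them. For Mt2 it was 0.53 and 0.70 within them, where the medians over all genes were 0.18 and 0.17. Embryo 5 was high in Mt2 in both media and embryos 8 and 9 were low in both (10.90 and 10.45, 10.84 and 10.88). For Slc39a4 it was 0.64 in pairs 1 to 6 and -0.004 in pairs 7 to 10, where pair 8 had 9.77 in GM501 and 7.81 in SAGE; without pair 8 the value over 9 pairs was 0.854 (adjusted p = 0.00262). Within either set none of the 3 was called, with 44 genes in pairs 1 to 6 and 12 in pairs 7 to 10 called in all.

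**Figure D5:**
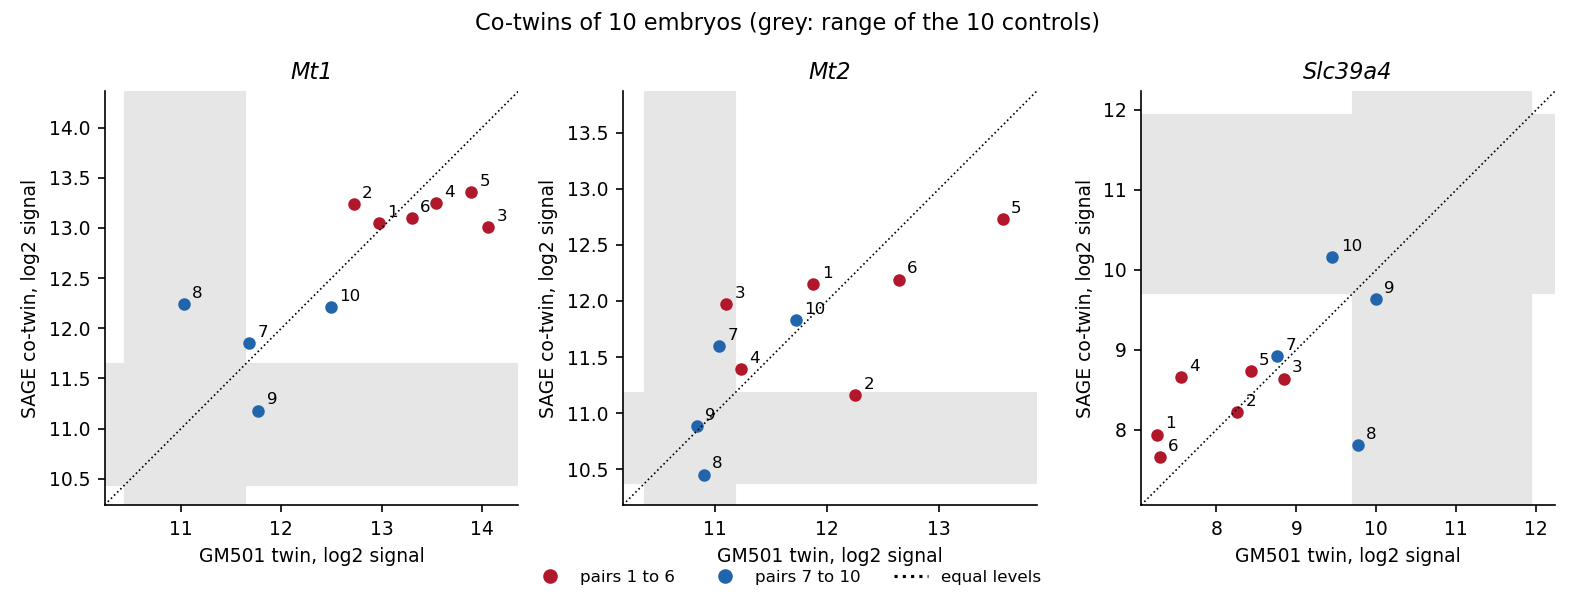
Log2 signal of the SAGE co-twin against that of the GM501 twin for Mt1, Mt2 and Slc39a4, 1 point per embryo with its pair number; grey bands give the range of the 10 controls. Mt1 separates pairs 1 to 6 from pairs 7 to 10 in both media, and pair 8 lies farthest from the line of equal levels for Slc39a4. The share of all genes that separate these sets was not counted.

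Whether the zinc genes moved together from embryo to embryo was tested among Mt1, Mt2, Slc39a4 and Slc30a1, in controls, in the differences between co-twins and in the pair means of pairs 1 to 6, which made 18 relations. None passed after Benjamini-Hochberg adjustment. In the 10 controls Mt1 and Mt2 had Pearson's r = 0.507 (permutation p = 0.148, adjusted p = 0.389) and Spearman's rho = 0.182 (permutation p = 0.612, adjusted p = 0.844), and r = 0.566 without the 2 controls farthest from the median of Mt1. Over the differences between co-twins their r was -0.442 (permutation p = 0.201, adjusted p = 0.389), with rho -0.31 (permutation p = 0.381, adjusted p = 0.755), and -0.125 without the 2 farthest pairs. The smallest p belonged to Mt2 and Slc30a1 in the differences between co-twins, with r = 0.646 (permutation p = 0.0435, adjusted p = 0.389) and rho = 0.634 (permutation p = 0.053, adjusted p = 0.729); it fell to 0.393 without the 2 farthest pairs.

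The genes most like Mt1, Mt2 and Slc39a4 were ranked over 30 arrays by Pearson's r after centring each gene within its group, among 11305 genes, as a description with no test. The pattern of Mt1 was closest to Atp5mpl (0.911), Mrpl42 (0.90), Atp5k (0.896), Polr2j (0.895) and Cmc2 (0.888), of which Atp5mpl and Atp5k encode small subunits of ATP synthase and Mrpl42 a mitochondrial ribosomal protein. With the pair sets centred too, these fell to between 0.58 and 0.653. Mt2 stood at rank 1833 for likeness to Mt1, with r = 0.546, and 0.17 with the sets centred. The pattern of Mt2 was closest to Zfp719 (0.822), Commd2 (0.815), H2-Oa (0.811), Tpd52l2 (0.806) and Psmb1 (0.784), which kept 0.728 to 0.771 with the sets centred. Closest to Slc39a4 were Aplp2 (0.854), Sptbn1 (0.827), Poldip2 (0.811), Plpp3 (0.811) and Adpgk (0.794), with 0.653 to 0.764. All arrays share their amplification and the array median, which enters every such correlation.

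Of 19 further zinc transporters and metallothioneins, 16 were bright enough to test; Slc39a12, Slc30a8 and Slc30a10 were not. In GM501 twins 1 of the 16, Slc39a2 (ZIP2), was called lower and none higher, where 6.97% of all genes were called lower and 6.81% higher. In SAGE twins 3 were lower and 2 higher, against 8.63% and 7.5% of all genes. The median difference over the 16 was -0.07 and -0.09, against 0.114 and 0.111 over all genes. Slc39a2 ran from 7.51 to 9.22 in controls, from 6.58 to 7.69 in GM501 twins and from 6.82 to 8.53 in SAGE twins, so that the groups overlapped. Its difference was -1.37 ± 0.211 (SE, adjusted p = 0.00126, limma) in GM501 and -0.92 ± 0.254 (adjusted p = 0.0243, limma) in SAGE twins. In pairs 7 to 10 alone it was -1.50 in GM501 twins (adjusted p = 0.0271) and -0.50 in SAGE twins (adjusted p = 0.513).

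In SAGE twins Slc39a7 (ZIP7), which releases zinc from the endoplasmic reticulum, fell by 0.54 ± 0.156 (adjusted p = 0.0296, limma), and Slc30a6 (ZnT6), the partner of ZnT5, fell by 0.52 ± 0.178 (adjusted p = 0.049, limma). Slc39a5 rose by 0.27 ± 0.0898 (adjusted p = 0.0452, limma) and Mt3 by 0.30 ± 0.0931 (adjusted p = 0.0372, limma). With each array centred on its median these rises shrank to 0.03 and 0.05 and were not called, nor were they without pair 8 (0.24 and 0.27), where Slc30a6 too lost its call (-0.46, adjusted p = 0.0712). With embryo as a random block over all 30 arrays Slc39a7, Slc30a6 and Mt3 were not called. Mt4, the metallothionein of squamous epithelia, was called higher with co-twins averaged (0.76 ± 0.247, adjusted p = 0.0338, limma) but in neither medium by itself, with 0.88 ± 0.33 in GM501 and 0.63 ± 0.259 in SAGE twins (SE). With co-twins averaged, none of the 16 genes, Mt4 included, was called higher once arrays were centred, and none in pairs 7 to 10 alone.

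Genes described as controlled by MTF1 outside the families had differences at or below 0 in twins. Of Gclc, Csrp1, Ndrg1, Selenow and Slc40a1, none was called higher; 3 of 5 were called lower in GM501 and 1 in SAGE twins, against 6.97% and 8.63% of all genes. Their median difference was -0.80 and -0.64, against 0.114 and 0.111 over all genes. Ndrg1, a gene induced by hypoxia and metals, ran from 14.51 to 15.63 in controls, from 13.56 to 14.29 in GM501 twins and from 12.58 to 15.46 in SAGE twins. It fell by 1.12 ± 0.14 (adjusted p = 0.000178, limma) in GM501 and by 1.16 ± 0.311 (adjusted p = 0.0224, limma) in SAGE twins. In pairs 7 to 10 alone the SAGE difference of Ndrg1 was -0.14 (adjusted p = 0.816, limma). Of the 5 genes, 1 was still called lower there in GM501 twins, against 104 of 18090 genes, and none in SAGE twins. Csrp1, of the smooth muscle cytoskeleton, fell by 0.80 ± 0.25 in GM501 twins (adjusted p = 0.0405, limma) but had 0.01 in pairs 7 to 10. Slc40a1, the iron exporter ferroportin, fell by 1.45 ± 0.476 (adjusted p = 0.0478, limma) in GM501 twins, and was not called in pairs 1 to 6 or in pairs 7 to 10 alone. With embryo as a random block, neither Csrp1 nor Slc40a1 was called.

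Copper and iron, the other metals a blastocyst takes up, gave a list of 20 genes that shares Slc40a1 with the one before. Of these, 17 were tested, with 1 called higher and 3 lower in GM501 twins and 2 higher and 3 lower in SAGE twins, against 6.81% and 6.97% of all genes in GM501 and 7.5% and 8.63% in SAGE twins. The median difference was -0.15 and -0.12, against 0.114 and 0.111 over all genes. Tfrc, the transferrin receptor through which cells take up iron, ran from 7.44 to 8.72 in controls, from 5.57 to 8.01 in GM501 twins and from 5.48 to 8.84 in SAGE twins. It fell by 1.32 ± 0.303 in GM501 twins (adjusted p = 0.0141, limma) and fell by 1.24 ± 0.356 in SAGE twins (adjusted p = 0.0286, limma). In pairs 7 to 10 alone the differences were -0.39 and -0.17, neither called. The transporter Slc46a1 fell by 0.72 ± 0.237 in GM501 and by 0.89 ± 0.207 in SAGE twins (adjusted p = 0.0488 and 0.0137, limma), and the ferrireductase Steap3 fell by 0.42 ± 0.0882 in SAGE twins (adjusted p = 0.00861, limma). Commd1 rose by 0.45 ± 0.134 in GM501 twins (adjusted p = 0.0349, limma). In SAGE twins the copper chaperone Cox17 rose by 0.52 ± 0.149 (adjusted p = 0.0295, limma) and the ferritin chain Fth1 by 0.39 ± 0.115 (adjusted p = 0.0323, limma). None of these 3 rises was called with arrays centred on their medians. In pairs 7 to 10 alone none of the copper and iron genes named here was called. Another of the 17 was called higher there in GM501 twins, against 135 of 18090 genes, and none in SAGE twins. With embryo as a random block Commd1 had 0.45 and was not called (adjusted p = 0.059, limma).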

How the data were processed

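The authors deposited 1 log2 signal for each of 65956 transcript clusters on each of 30 arrays, made with RMA in Affymetrix Expression Console for mm10, per the submitters' processing notes; versions are not given in the sources used here, and the base 2 of the log2 scale was inferred from RMA and from how high the values reach. RMA normalizes across arrays, so signals are relative, and the number of arrays limits the precision. RNA of single blastocysts was amplified before labelling, per the labels' protocols, which can add spread between arrays. The labels do not say how many matings or days the embryos came from, so p-values reflect only how these embryos vary.

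Of the clusters, 32750 had a listed gene and 30604 a single symbol (827 updated through the gene ID); the 2146 with several were not used. The brightest cluster of each gene was taken, and the upper 60% of genes by mean over all arrays, at 4.8 or more, were tested. Two-sided fits were made with lmFit and eBayes of limma 3.58.1 (R 4.3.3). The code was tried on simulated data with the spread of controls, an effect of each pair and no pair sets. Such data do not show how the fits act under the wider spread of the real twins. A call is a p under 0.05 after Benjamini-Hochberg adjustment over all genes tested. Media were compared with the pair as a block. The pairing comes from the labels, which number twins by their 2-cell embryo; over genes centred within each medium, co-twins correlated at 0.163 to 0.696 in all 10 pairs, and 7 of 10 GM501 twins correlated best with their own sister. Each twin group, and the mean of co-twins, was compared with controls without a block.

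The 10 genes, the gene lists and the division of the pairs were chosen with earlier results of these data known, and for the 10 genes the comparison with controls supports nothing. Genes were named by rule: the 10 whatever their values, up to 4 called genes per list and direction with the smallest p, and the 5 nearest genes by correlation for Mt1, Mt2 and Slc39a4. The 2 primitive endoderm genes named beside Slc39a4 are the extremes of their list, chosen after their values were seen. Alternatives were array centring, other filters, moderation, array weights, subsets of pairs, no block and a random block for embryo. Permutation p-values used 100000 resamples at n = 10 and all 720 orders at n = 6.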

Additional observations from a re-analysis of the deposited data

Results flagged for a closer look

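In the controls, Mt2 of blastocyst 8 stood at 11.18 log2 units, apart from the other 9, which lay between 10.38 and 10.73; the gap to the nearest was 0.562 of the whole range of the group. The same blastocyst had 11.43 for Mt1 and 10.55 for Slc39a1, the highest Slc39a1 of the controls. This was 1 of 30 groups checked (10 genes in 3 groups), and chance sets 1 array apart in about 1 in 20 groups by this measure.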

How the results depend on the processing

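Comparisons of the media called 0 genes under all 9 alternatives; with no replicate block, that is with the pairing left out, the count was 0 as well, with 225 genes at an unadjusted p under 0.05. Counts against controls moved with the filter, the weights and the pairs. In GM501 twins they were 5757 with no filter, 7911 with array weights, 10742 in pairs 1 to 6, 239 in pairs 7 to 10 and 4524 without pair 8, against 2493. In SAGE twins they were 7911, 8876, 10642 and 147 under the first 4 of these, against 2918. With co-twins averaged they were 12409, 10798, 11605 and 132, and 2992 in the upper 40% of genes, against 4628. The F test for embryo of origin called 44 genes in pairs 1 to 6 and 12 in pairs 7 to 10, against 4779; fewer samples entered there. In pairs 7 to 10, Mt1 differed from controls by 0.734 in GM501 and 0.861 in SAGE twins, Slc39a4 in GM501 twins by -1.391, Slc30a4 in GM501 twins by -0.38, Slc39a1 in SAGE twins by -0.369 and Mtf1 in GM501 twins by 0.101, the last with its sign turned; the cause was not tested. The medium difference, far from any call, changed sign in pairs 7 to 10 for Mt1 (-0.128), Mt2 (-0.065), Slc39a4 (0.362), Slc30a4 (0.432) and Slc30a5 (0.507), in pairs 1 to 6 for Slc39a10 (-0.102) and Slc30a1 (0.103), and for Slc39a10 with array weights (-0.0003) and without pair 8 (-0.061). Intraclass correlations changed sign in pairs 7 to 10 for Mt1 (-0.03), Mtf1 (-0.401), Slc39a4 (-0.004), Slc39a10 (0.351), Slc30a1 (-0.174), Slc30a4 (-0.546) and Slc30a5 (-0.849), in pairs 1 to 6 for Slc39a1 (-0.017) and without pair 8 for Slc39a10 (0.009). With arrays centred, those of Slc39a1 (0.718, adjusted p = 0.0215, limma) and Slc30a1 (0.609, adjusted p = 0.0449, limma) were called, and with no filter that of Slc39a4 was not (adjusted p = 0.052, limma). The correlation of Mt2 with Slc39a4 over the pair means of pairs 1 to 6 turned from -0.0372 to 0.198 with arrays centred. Another cluster per gene could not be tried, since each of the 10 genes had 1.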
